A study of Mus musculus with 4 samples.

Results

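Pramel, Obox, Oog and Tdpoz are 4 families of tandemly repeated mouse genes known mainly from oocytes, germ cells and early embryos. Their members were taken as every gene whose symbol starts with one of these 4 names followed by a digit, a rule that used no measured value. The families themselves were chosen with earlier results of these data known. The rule found 113 of the 50559 genes listed, made up of 47 Pramel, 53 Obox, 4 Oog and 9 Tdpoz genes, and 47 of the Obox genes carry the suffix ps of a pseudogene. The 4 RNA-seq libraries are from mouse ESCs given either an siRNA that targets Cnot1 (siCnot1) or a non-targeting control siRNA (siNT), with 2 independent biological replicates of each. CNOT1 holds together the CCR4-NOT complex, which shortens the poly(A) tails of mRNAs, and the comparison asks what its loss does to transcripts of totipotent-like cells. All 4 libraries came from 1 ESC line, labelled E14, grown on gelatin in serum replacement with LIF, and the study describes its ESCs as carrying a tdTomato transgene under the MERVL promoter. The siRNA was used at 150 nM and cells were collected after 48 h. The study lists a pair of siRNAs against Cnot1 and does not name the one behind these libraries.

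PRAME-like (Pramel) proteins are built of leucine-rich repeats. Several serve as substrate receptors of cullin ubiquitin ligases, and PRAMEL7, found in the inner cell mass and in naive ESCs, directs the DNA methylation cofactor UHRF1 to degradation through a CUL2 ligase. Oog genes encode PRAME-like proteins first described in oocytes. Obox genes encode paired-like homeodomain proteins that take part in the activation of the zygotic genome, and Tdpoz genes encode proteins with a TRAF domain and a POZ domain, the same pair of domains as SPOP, the substrate adaptor of CUL3. Pramel and Tdpoz genes are among those read in 2-cell embryos, and ESC cultures hold a small share of 2C-like cells (2CLCs) that turn on such genes. In bulk RNA, more cells that use a gene and more RNA of that gene per cell cannot be told apart.

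Library totals ranged from 32135824 to 32557440 counts. Cnot1 itself had 28397 and 30903 counts in siNT and 6188 and 6425 in siCnot1, 0.198 of the control level (log2 fold change -2.33, SE 0.0587). Ythdf2, which codes for the m6A reader studied alongside CNOT1, had a log2 fold change of -0.09 (SE 0.108, adjusted p = 0.58). The 8 ESC markers examined summed to 5407 to 6821 CPM (counts scaled to library size) in every library, while 5 defining oocyte markers summed to 2.54 and 3.89 CPM in siNT and 4.8 and 3.85 CPM in siCnot1, with Zp1 at 0 throughout. Of the 8 ESC markers 6 were lower in siCnot1, Pou5f1 (log2 fold change -0.24, SE 0.0556) among them. Over all tested genes 15% were called higher and 14.7% lower. Markers of the trophectoderm (21 to 24.5 CPM), the primitive endoderm (11.1 to 21.5 CPM) and fibroblasts (17.2 to 29.2 CPM) were low in all libraries. Of 4 tested trophectoderm markers 1 was called higher, Krt7, with 2 and 4 counts in siNT and 16 and 22 in siCnot1. Krt7 had enough counts to be tested only through its siCnot1 libraries, so its call is no support for a change. Primitive endoderm and fibroblast markers were higher in both siCnot1 libraries than in both siNT libraries, with 2 of 5 and 2 of 4 tested genes called higher, and the part of such cells in the results below was not tested. The 4 germ cell markers summed to 452 and 479 CPM in siNT and to 285 and 279 CPM in siCnot1, with 3 of them lower.

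The promoters that bear on the results below show how closely some members are copied. They are RefSeq sequences of GRCm38.p6, 250 bases before to 50 bases after the annotated start, written along the gene's strand and joined to the counts by symbol. Of the 113 members 52 had one, and of the 24 members with enough counts to be tested 18 had one. Pramel14 (chr4:143994320-143994619, minus strand) and Pramel30 (chr4:144329999-144330298, plus strand) are shown because they are the closest pair, 97.3% identical, with 8 positions of the alignment that differ. Capitals mark the bases that differ from the partner or face a gap.
Pramel14: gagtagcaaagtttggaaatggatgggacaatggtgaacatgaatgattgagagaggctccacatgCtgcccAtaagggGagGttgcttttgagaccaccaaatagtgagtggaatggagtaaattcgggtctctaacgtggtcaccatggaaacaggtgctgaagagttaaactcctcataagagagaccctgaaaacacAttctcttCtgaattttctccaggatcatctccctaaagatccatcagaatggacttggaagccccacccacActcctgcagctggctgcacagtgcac
Pramel30: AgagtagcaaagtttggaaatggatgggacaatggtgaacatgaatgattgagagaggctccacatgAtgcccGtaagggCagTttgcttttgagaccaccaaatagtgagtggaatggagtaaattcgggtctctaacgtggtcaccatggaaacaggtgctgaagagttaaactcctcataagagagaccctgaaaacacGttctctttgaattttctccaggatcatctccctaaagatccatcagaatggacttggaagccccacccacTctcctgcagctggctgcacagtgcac

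Pramel7 lies on another chromosome (chr2:87492369-87492668, minus strand) and has the next relative of the Pramel14 promoter, 76.4% identical. It is shown with the bases that differ from Pramel14 in capitals, since Pramel14 was called higher and Pramel7 was not, a difference that was not tested.
Pramel7: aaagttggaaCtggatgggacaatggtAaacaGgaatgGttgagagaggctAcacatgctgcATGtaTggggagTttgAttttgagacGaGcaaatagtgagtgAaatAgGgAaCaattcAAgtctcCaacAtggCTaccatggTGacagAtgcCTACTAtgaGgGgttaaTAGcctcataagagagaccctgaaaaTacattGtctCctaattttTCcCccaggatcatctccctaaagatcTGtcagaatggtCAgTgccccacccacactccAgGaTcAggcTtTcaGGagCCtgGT

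Pramel20 (chr4:143567217-143567516, plus strand) and Pramel31 (chr4:144357714-144358013, plus strand) were 75.6% identical once overhanging ends were counted as differences, and Pramel11 (chr4:143900331-143900630, minus strand) and Pramel24 (chr4:143719201-143719500, plus strand) were 84.7% identical. Capitals again mark what differs within each pair. The median over all 153 pairs of the 18 genes was 50.3%.
Pramel20: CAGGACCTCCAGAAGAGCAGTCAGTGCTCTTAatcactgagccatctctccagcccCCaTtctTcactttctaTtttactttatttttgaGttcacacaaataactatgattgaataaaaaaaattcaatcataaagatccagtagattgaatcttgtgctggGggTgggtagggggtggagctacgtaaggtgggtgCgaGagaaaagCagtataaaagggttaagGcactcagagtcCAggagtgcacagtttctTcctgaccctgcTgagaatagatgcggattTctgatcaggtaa
Pramel31: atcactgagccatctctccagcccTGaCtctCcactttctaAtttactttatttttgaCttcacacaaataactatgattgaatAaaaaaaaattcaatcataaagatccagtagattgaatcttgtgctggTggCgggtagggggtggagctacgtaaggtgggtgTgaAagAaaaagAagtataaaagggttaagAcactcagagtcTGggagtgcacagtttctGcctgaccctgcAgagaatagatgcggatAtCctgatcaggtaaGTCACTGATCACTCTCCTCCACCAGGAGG
Pramel11: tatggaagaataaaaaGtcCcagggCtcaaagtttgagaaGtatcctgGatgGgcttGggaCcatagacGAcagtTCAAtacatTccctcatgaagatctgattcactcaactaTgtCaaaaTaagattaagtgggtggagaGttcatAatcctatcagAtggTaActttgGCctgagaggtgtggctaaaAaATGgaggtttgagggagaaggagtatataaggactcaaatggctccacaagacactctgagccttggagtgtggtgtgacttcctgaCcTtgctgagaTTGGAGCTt
Pramel24: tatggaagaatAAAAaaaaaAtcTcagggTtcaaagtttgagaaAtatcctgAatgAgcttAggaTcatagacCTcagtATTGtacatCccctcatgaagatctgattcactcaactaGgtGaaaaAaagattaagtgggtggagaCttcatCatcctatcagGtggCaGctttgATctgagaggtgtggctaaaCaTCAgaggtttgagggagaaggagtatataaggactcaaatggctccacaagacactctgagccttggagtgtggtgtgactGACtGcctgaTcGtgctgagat

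Pramel1 (chr4:143394191-143394490, plus strand) is shown as the contrast, with CG dinucleotides in capitals. It holds 20 of them and has a GC content of 60.0%, against a median of 2 CG dinucleotides over the 19 promoters of tested members (Tdpoz8 has a pair of starts) and of 7 over 32851 mouse promoters.
Pramel1: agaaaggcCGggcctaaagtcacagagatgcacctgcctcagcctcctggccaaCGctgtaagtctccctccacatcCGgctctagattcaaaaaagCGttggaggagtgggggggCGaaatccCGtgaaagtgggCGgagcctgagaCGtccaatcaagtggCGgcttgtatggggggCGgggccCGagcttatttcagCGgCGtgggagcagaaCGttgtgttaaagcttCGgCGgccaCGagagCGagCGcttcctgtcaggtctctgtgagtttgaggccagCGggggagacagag

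Most members were given no or hardly any reads in these ESCs. Of the 113 genes 51 had a count of 0 in all 4 libraries, made up of 12 Pramel, 35 Obox, 3 Oog and 1 Tdpoz gene, and 38 more had counts too low to be tested. The 24 tested genes were 19 Pramel, 2 Obox and 3 Tdpoz genes, and no Oog gene. They passed a filter that asks for about 10 counts in at least 2 libraries. Of the 24, 20 reached that level in both siNT libraries, and the other 4 (Pramel5, Pramel11, Pramel17 and Pramel28) reached it in 1 siNT library only, so that they were tested through their siCnot1 libraries.

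Knockdown of Cnot1 was accompanied by higher counts of many Pramel genes and of Tdpoz3, by lower counts of Pramel3, and by no called change of an Obox gene. With edgeR's quasi-likelihood test and Benjamini-Hochberg adjustment over all 18144 genes tested, 13 of the 24 members were higher in siCnot1 at an adjusted p under 0.05 and 1 was lower, and 10 were not called. The same test called 15% of all tested genes higher and 14.7% lower. By the study's own kind of threshold, an unadjusted p of at most 0.05 with at least a 2-fold change, 11 members were higher and 0 were lower, against 6.18% and 1.80% of all tested genes. Pramel3 had an unadjusted p of 0.000131 and missed that count by its fold change of 0.5002. Both siCnot1 libraries lay above both siNT libraries for 17 members and below for 2, against 32.7% and 31.2% of all tested genes. The 4 members tested through their siCnot1 libraries hold 2 of the 13 higher calls, and 11 of the 20 others were called higher. Those 2, Pramel11 and Pramel28, are also among the 11 members past the study's threshold. With Pramel5 they are also among the 17 members that lay above. The count of higher members rested on both siNT libraries: it was 6 without siNT replicate 1 and 7 without siNT replicate 2, with 0 lower in either case, while the higher calls over all genes went from 2719 to 625 and 735. Pramel14, Pramel16, Pramel19, Pramel30, Pramel31 and Tdpoz3 stayed called in both cases.

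**Figure D1:**
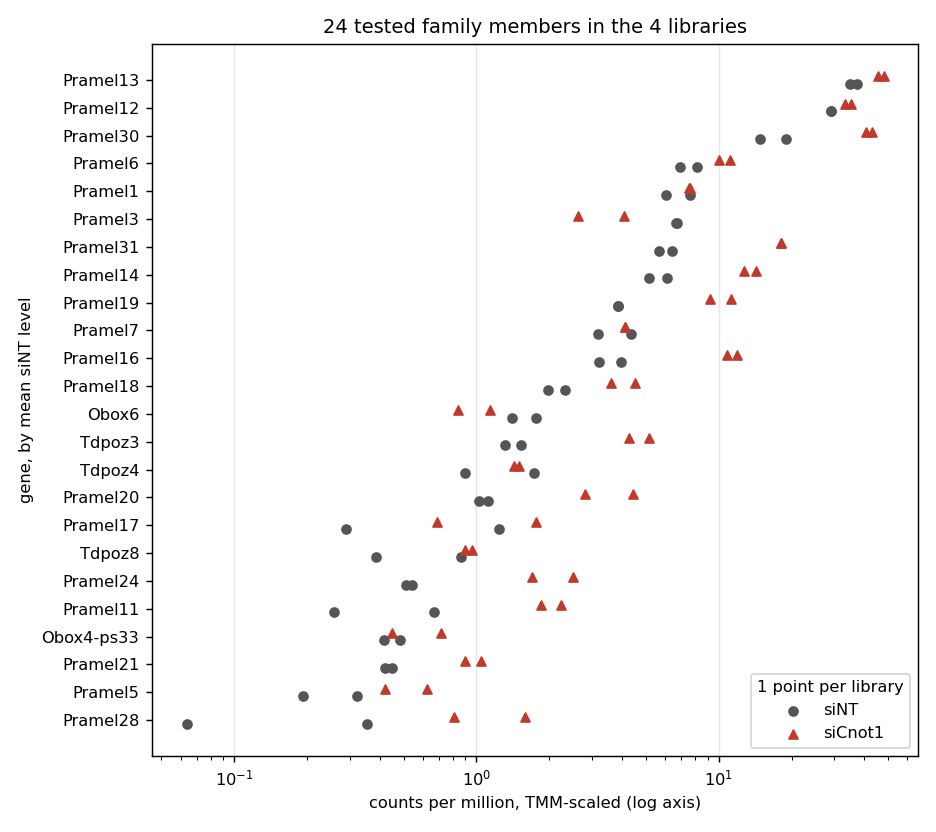
Level of the 24 tested members in each library, in CPM scaled by edgeR's TMM method, on a log axis; circles are the 2 siNT and triangles the 2 siCnot1 libraries, and genes are ordered by their mean siNT level. Pramel13, Pramel12 and Pramel30 have the highest levels, and the triangles lie right of both circles for 17 genes and left of both for Pramel3 and Obox6.

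The largest set of tested members lies in a run on chromosome 4 (GRCm39, 143120889 to 144135037). It holds 24 members, 21 Pramel and 3 Oog genes, with 13 tested and 9 called higher. Pramel30 (chromosome 4, 144056819 to 144060035, plus strand) had 460 and 593 counts in siNT and 1356 and 1441 in siCnot1. All its siCnot1 values lay above its siNT values, and its level rose 2.48-fold, from 16.8 ± 2.92 to 41.7 ± 1.82 CPM (SD, n = 2; log2 fold change 1.31, SE 0.111, adjusted p = 8.86e-09 by edgeR). Per kilobase of exon (RPKM) it stood at 9.65 in siNT and 23.9 in siCnot1, the highest of the members in siCnot1. Pramel14, whose promoter differs from that of Pramel30 in the few capitals above, had 190 and 162 counts in siNT and 478 and 427 in siCnot1, 2.4-fold more (log2 fold change 1.26, SE 0.154, adjusted p = 1.51e-06). The fold changes of both genes lie within 1 SE of each other. Their transcripts also share an identical stretch of 483 bases, and 56.3% of the 100-base windows of Pramel14 recur in another gene, so the counts of these genes may hold reads of the other.

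Pramel31 and Pramel20 form another pair of related promoters. Pramel31 had 176 and 201 counts in siNT and 606 and 608 in siCnot1, a 3-fold rise (log2 fold change 1.59, SE 0.138, adjusted p = 1.24e-08 by edgeR). Pramel20 was less abundant than Pramel31 and also higher in siCnot1, with 32 and 35 counts in siNT and 94 and 148 in siCnot1 (log2 fold change 1.75, SE 0.314, adjusted p = 0.000163). The groups did not overlap for either gene. Pramel24 had 16 and 17 counts in siNT and 57 and 84 in siCnot1 (log2 fold change 1.99, SE 0.407, adjusted p = 0.000632). Pramel11, its partner by promoter, had 8 and 21 counts in siNT and 75 and 62 in siCnot1 (log2 fold change 2.13, SE 0.444, adjusted p = 0.00076). Pramel16 had 100 and 124 counts in siNT and 362 and 397 in siCnot1 (log2 fold change 1.66, SE 0.177, adjusted p = 2.23e-07), again without overlap. Pramel28, the least abundant of those called, had 11 and 2 counts in siNT and 27 and 53 in siCnot1. Its log2 fold change was the highest of all members at 2.50, with the second widest SE (0.649, adjusted p = 0.00505), and it rested on few reads: without siNT replicate 2 it was 1.75 (adjusted p = 0.162) and without siNT replicate 1 it was 4.15 (adjusted p = 0.064).

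At the ends of the same run the log2 fold changes were smaller in value, a difference that was not tested. Pramel13, named Pramef12 in older annotation and known for its part in spermatogonial stem cells, had 1083 and 1164 counts in siNT and 1609 and 1527 in siCnot1, 1.3-fold more (log2 fold change 0.38, SE 0.0882, adjusted p = 0.00201 by edgeR). It had the highest level of the members per kilobase in siNT (12.5 RPKM). Pramel12 had 908 and 912 counts in siNT and 1118 and 1180 in siCnot1, above siNT in both libraries but not called (log2 fold change 0.24, SE 0.0944, adjusted p = 0.0633). Upper-quartile scaling, library totals and a filter on CPM called it, with adjusted p of 0.044, 0.00769 and 0.0439. Pramel1, which starts the run beside Pramel12 and has the CG-rich promoter shown above, had 236 and 190 counts in siNT and 252 and 256 in siCnot1 (log2 fold change 0.15, SE 0.172, adjusted p = 0.555). Its groups did overlap in CPM. Pramel21 (13 and 14 counts in siNT, 35 and 30 in siCnot1, adjusted p = 0.102) and Pramel5 (10 and 6 in siNT, 14 and 21 in siCnot1, adjusted p = 0.291) had log2 fold changes of 1.16 and 1.02 that were not called at this depth. Summed over its 24 members, the run had 3244 and 3441 counts in siNT and 6089 and 6239 in siCnot1 (log2 fold change 0.78, SE 0.0606, adjusted p = 2.16e-09). Such sums by place in the genome were chosen after the values were seen.

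**Figure D2:**
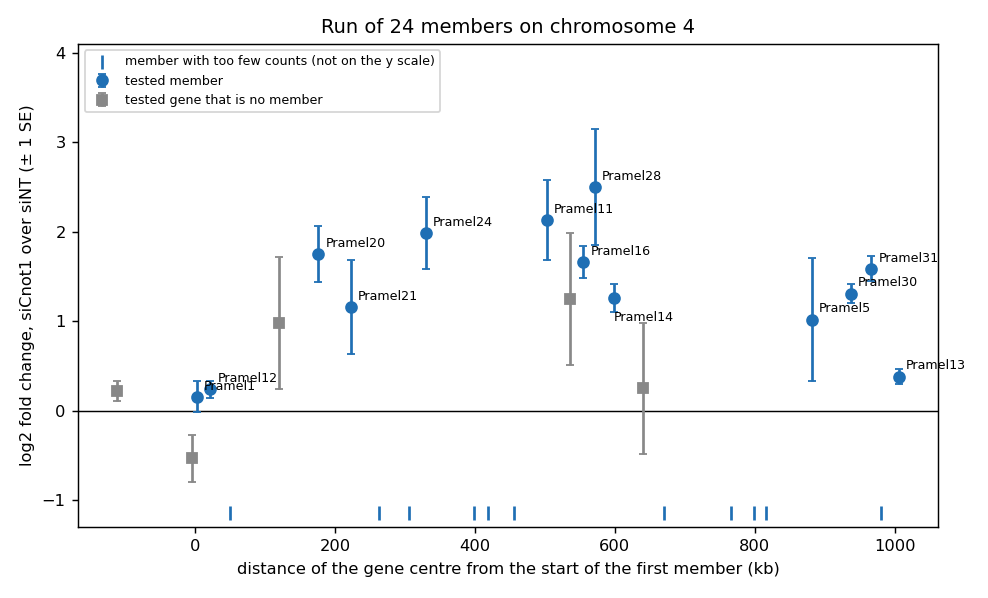
Log2 fold change of siCnot1 over siNT along the run of 24 members on chromosome 4, by distance of each gene's centre from the start of the first member in kb; circles are the 13 tested members, squares the 5 other tested genes within 100 kb of a member, bars ± 1 SE, and ticks at the bottom mark members too low to test. Members between Pramel20 and Pramel31 lie at or above 1.02, while Pramel1, Pramel12 and Pramel13 at the ends lie at 0.15, 0.24 and 0.38.

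A smaller run on chromosome 4 (101692166 to 101800380) holds Pramel17, Pramel18 and Pramel19. Pramel19 had 120 and 121 counts in siNT and 377 and 307 in siCnot1 (log2 fold change 1.4, SE 0.179, adjusted p = 2.69e-06 by edgeR). Pramel18 had 72 and 62 counts in siNT and 121 and 151 in siCnot1 (log2 fold change 0.92, SE 0.258, adjusted p = 0.00873), a call lost when low counts were not filtered (adjusted p = 0.0581). Both were higher in each siCnot1 library than in each siNT library. Pramel17 had 9 and 39 counts in siNT and 59 and 23 in siCnot1, and its groups overlapped (log2 fold change 0.67, SE 0.548, adjusted p = 0.395). Without siNT replicate 1 its sign turned, at -0.02. Together the 3 genes had a log2 fold change of 1.19 (SE 0.143, adjusted p = 1.1e-06).

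Pramel6 and Pramel7, neighbours on chromosome 2 (87319432 to 87341209), are the members best known from ESCs. Pramel7 had 99 and 136 counts in siNT and 138 and 137 in siCnot1, a log2 fold change of 0.13 (SE 0.23, adjusted p = 0.733 by edgeR) with groups that overlapped in CPM. Pramel6 had 254 and 217 counts in siNT and 337 and 372 in siCnot1, with no overlap (log2 fold change 0.49, SE 0.154, adjusted p = 0.0188). The call of Pramel6 was lost with DESeq2 (adjusted p = 0.0585) and without the filter (adjusted p = 0.101). Among partners of PRAMEL7 in the degradation of UHRF1, Uhrf1 had a log2 fold change of -0.12 (adjusted p = 0.104) and Cul2 of -0.15 (adjusted p = 0.0654), neither called. Dnmt1, the maintenance methyltransferase that UHRF1 recruits (log2 fold change -0.23, adjusted p = 0.00189), Eloc (log2 fold change -0.31, adjusted p = 0.000961), Elob (log2 fold change -0.20, adjusted p = 0.0134) and Rbx1 (log2 fold change -0.22, adjusted p = 0.0222) were called lower. That made 4 of 6 lower and 0 higher, beside 14.7% and 15% of all tested genes. With library totals in place of TMM 1 of 6 was lower.

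Pramel3, on the X chromosome (134203039 to 134213385, plus strand), was the only member called lower. It had 207 and 211 counts in siNT and 88 and 136 in siCnot1, and both siCnot1 values lay below both siNT values (log2 fold change -1.0, SE 0.218, adjusted p = 0.00114 by edgeR). Its level fell from 6.69 ± 0.055 to 3.34 ± 1.02 CPM (SD, n = 2). The call was lost when low counts were not filtered (adjusted p = 0.0525), without siNT replicate 1 (adjusted p = 0.113) and without siNT replicate 2 (adjusted p = 0.116), with log2 fold changes between -1.01 and -0.99. Of its 100-base windows 62.3% recur in another gene, the highest share of the 22 tested members that could be matched to a transcript.

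The remaining Pramel genes were too low to be tested one by one. Of the 28 untested, 16 had at least 1 count, and together the 28 had 7 and 10 counts in siNT and 50 and 22 in siCnot1 (log2 fold change 1.97, SE 0.594, adjusted p = 0.0143 by edgeR). Most of these counts fell in a run of 18 Pramel genes on chromosome 5 (93629686 to 95884032), which had 6 and 8 counts in siNT and 37 and 15 in siCnot1 (log2 fold change 1.78, SE 0.664, adjusted p = 0.0464). Neither siNT library reached the filter level for the sum of this run or for the sum of all 28. Both sums thus became testable through the group in which they were higher, and the calls are no support for a change. The siCnot1 libraries differed more from each other than the siNT libraries did. Pramel41, in that run, had 0 and 3 counts in siNT and 8 and 8 in siCnot1. Pramel51, on chromosome 12, had 0 and 2 counts in siNT and 7 and 2 in siCnot1.

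**Figure D3:**
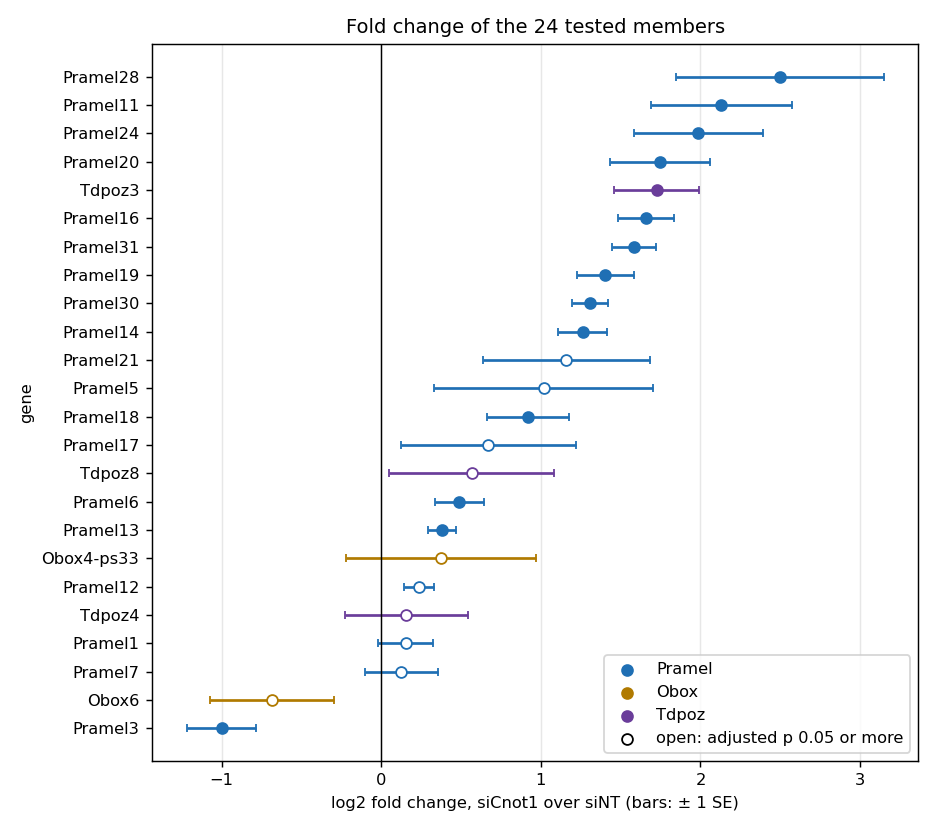
Log2 fold change of siCnot1 over siNT for the 24 tested members, with bars of ± 1 SE; filled points have an adjusted p under 0.05 and colours give the family. The fold changes run from -1.0 for Pramel3 to 2.50 for Pramel28, and 22 of 24 lie above 0.

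Tdpoz genes lie on chromosome 3 (92976130 to 93979951), and 8 of the 9 gave at least 1 count. Tdpoz3 (93733327 to 93734424, plus strand) had 41 and 48 counts in siNT and 173 and 143 in siCnot1 and rose from 1.42 ± 0.151 to 4.71 ± 0.63 CPM (SD, n = 2; log2 fold change 1.72, SE 0.266, adjusted p = 2.88e-05 by edgeR). Tdpoz4 had 54 and 28 counts in siNT and 48 and 50 in siCnot1, with overlapping groups (log2 fold change 0.16, SE 0.385, adjusted p = 0.812). Tdpoz8 had 12 and 27 counts in siNT and 30 and 32 in siCnot1 (log2 fold change 0.57, SE 0.519, adjusted p = 0.454). Only Tdpoz3 was called, and 46.7% of its 100-base windows recur in another gene. The family summed to 111 and 110 counts in siNT and 257 and 231 in siCnot1, 2.06-fold higher (log2 fold change 1.04, SE 0.193, adjusted p = 0.000234), and without Tdpoz3 the log2 fold change was 0.28 (SE 0.281, adjusted p = 0.498). Leaving out siNT replicate 1 or siNT replicate 2 put the sum just past the threshold (adjusted p = 0.0533 and 0.0528). Of the CUL3 ligase in which SPOP serves, Spop had a log2 fold change of 0.08 (adjusted p = 0.483), Spopl of -0.24 (adjusted p = 0.142), and Cul3 of -0.26 (adjusted p = 0.00238). Cul3 and Rbx1, 2 of 4, were called lower and 0 higher, beside 14.7% and 15% of all tested genes. With library totals 0 of 4 was lower.

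Few reads were counted on Obox genes. Of 53, 18 gave a count and 2 were tested, and Obox1, Obox2 and Obox7 were at 0 in every library. In 15 of the 53 at least 80% of the 100-base windows recur in another gene, and in 7 all do. For such copies a count of 0 need not mean that no transcript was present. The shares of Obox1, Obox2 and Obox7 were lower, at 40.9%, 42.5% and 2.69%. Obox6 (chromosome 7, 15567175 to 15573604, minus strand), a homeobox gene also read in preimplantation embryos, had 55 and 44 counts in siNT and 38 and 28 in siCnot1. Its siCnot1 values lay below its siNT values, at a log2 fold change of -0.68 (SE 0.386, adjusted p = 0.197 by edgeR), which was not called. Obox4-ps33 had 15 and 13 counts in siNT and 24 and 15 in siCnot1 (log2 fold change 0.37, SE 0.594, adjusted p = 0.691), with overlapping groups. The 53 genes summed to 81 and 71 counts in siNT and 90 and 57 in siCnot1 (log2 fold change -0.15, SE 0.298, adjusted p = 0.762). Without Obox6 the sign turned (log2 fold change 0.51, SE 0.44, adjusted p = 0.424). Among 7 other paired-like homeobox genes 4 were tested, and Duxbl1 was higher (log2 fold change 1.35, adjusted p = 0.0016), Otx2 was lower (log2 fold change -0.74, adjusted p = 1.15e-05) and Crxos had a log2 fold change of -0.15 (adjusted p = 0.421).

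Oog genes were at the limit of detection. Oog1, on chromosome 12, had 0 and 0 counts in siNT and 1 and 6 in siCnot1, and Oog2, Oog3 and Oog4, which lie inside the large run of Pramel genes on chromosome 4, had 0 in every library. A count of 0 allows up to 3 counts, or 0.0895 to 0.0963 CPM at the depth of these libraries, counting error only. With 6 counts in 1 library, a difference for Oog1 could not be tested.

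The Pramel family as a whole rose, and its make-up shifted. Its 47 genes summed to 4011 and 4237 counts in siNT and 7253 and 7382 in siCnot1, or 132 ± 4.38 and 218 ± 2.88 CPM (SD, n = 2), 1.66-fold more (log2 fold change 0.73, SE 0.0586, adjusted p = 3.73e-09 by edgeR). Reads exchanged among these 47 genes leave the sum unchanged, but those exchanged with copies outside them do not: Pramel3 shares 52.8% of its 100-base windows with Gm15023 and Pramel20 36.5% with Gm13040. Pramel13 made up 27.0% and 27.5% of the sum in siNT and 22.2% and 20.7% in siCnot1, and Pramel12 went from 22.6% and 21.5% to 15.4% and 16.0%. Pramel30 took the opposite course, from 11.5% and 14.0% to 18.7% and 19.5%. Pramel31 went from 4.39% and 4.74% to 8.36% and 8.24%, and Pramel3 from 5.16% and 4.98% to 1.21% and 1.84%. The difference in response between families was not tested.

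**Figure D4:**
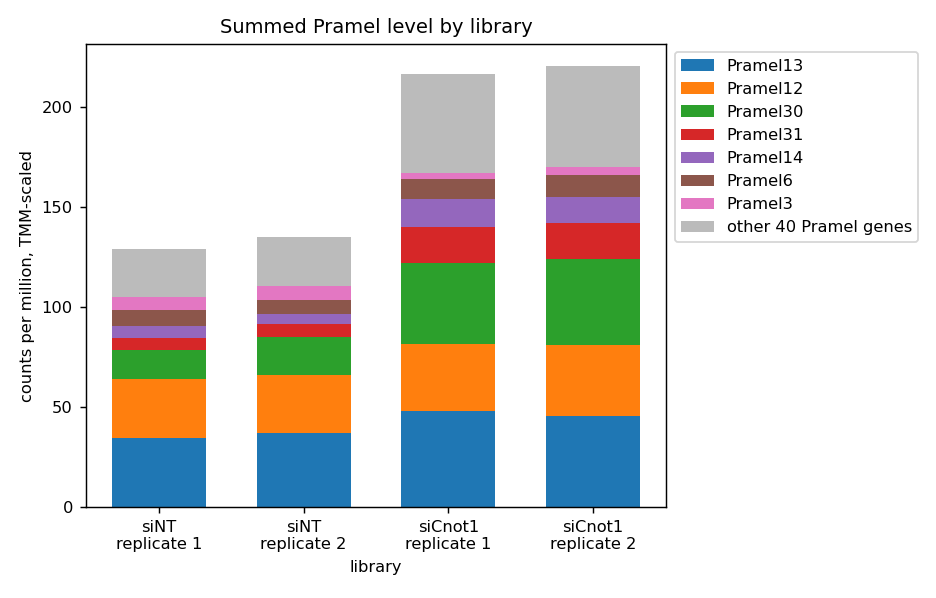
Summed level of the 47 Pramel genes in each library, in TMM-scaled CPM, stacked by gene; the bar height is the sum and grey holds 40 genes. The bars reach 129 and 135 CPM in siNT and 216 and 220 CPM in siCnot1, and the layer of Pramel30 widens from a mean of 16.8 to 41.7 CPM.

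Since near-identical copies can exchange reads, each member was set beside the share of its transcript that recurs elsewhere, as 100-base windows of GENCODE M21 transcripts found in at least 1 other gene. Of 24 tested members 22 could be matched, Pramel18 and Pramel28 could not. For 7 members (Pramel1, Pramel6, Pramel7, Pramel12, Pramel13, Obox6 and Tdpoz8) no window recurred, and their log2 fold changes ran from -0.68 to 0.57 with a median of 0.24, 2 called higher. For the other 15 the median was 1.31, from -1.0 to 2.13, with 9 called higher and 1 lower. Members with few recurring windows were on both sides: Pramel24 with 1.74% had a log2 fold change of 1.99, while Tdpoz4 with 11.6% had 0.16. The 8 Pramel genes with no recurring window, tested or not, summed to 2580 and 2619 counts in siNT and 3454 and 3472 in siCnot1 (log2 fold change 0.31, SE 0.064, adjusted p = 0.000615 by edgeR). The 26 with a recurring window summed to 1346 and 1547 counts in siNT and 3620 and 3695 in siCnot1 (log2 fold change 1.24, SE 0.0746, adjusted p = 4.81e-11). The other 13, Pramel18 and Pramel28 among them, were matched to no transcript and summed to 85 and 71 counts in siNT and 179 and 215 in siCnot1 (log2 fold change 1.24, SE 0.226, adjusted p = 0.000202). This split was made after the values were seen, and the part of shared reads in the difference between the sums was not tested. How reads that fit several genes were counted is not given in the sources used here.

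**Figure D5:**
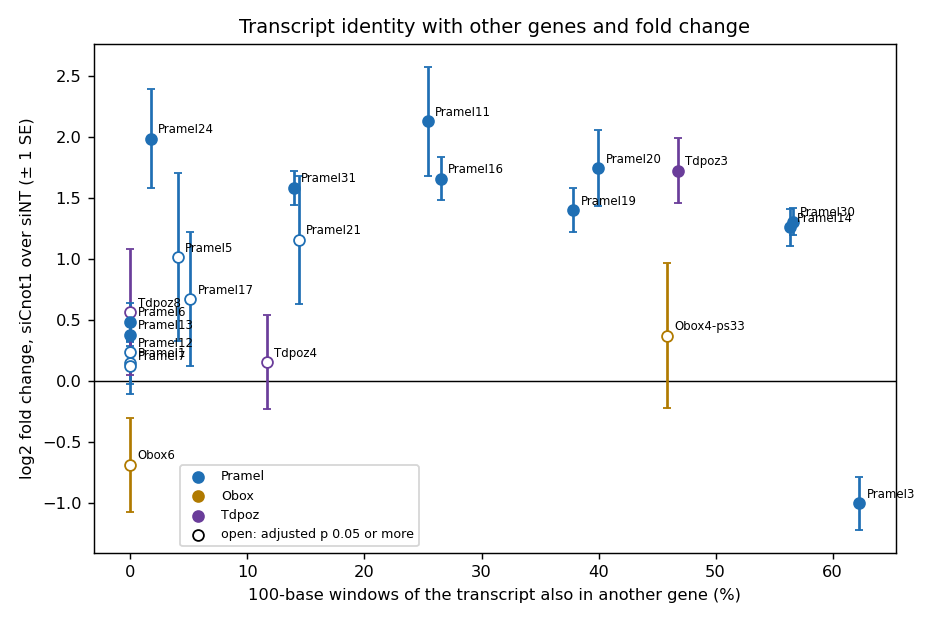
Log2 fold change of siCnot1 over siNT (± 1 SE) for the 22 tested members matched to a transcript, against the percent of the transcript's 100-base windows that recur in another gene; filled points have an adjusted p under 0.05 and colours give the family. The 7 members without a recurring window stand at 0% with fold changes of at most 0.57, Pramel24 reaches 1.99 at 1.74%, and Pramel3 at 62.3% lies lowest.

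The promoters of tested members, only some of which are printed above, were also read for their CG dinucleotides and for short motifs. The 3 tested members with 7 or more CG dinucleotides were Pramel1 with 20, Pramel3 with 9 and Pramel13 with 7, and their log2 fold changes were 0.15, -1.0 and 0.38. The other 15 tested members with a promoter had at most 4, with log2 fold changes from 0.13 for Pramel7 to 2.13 for Pramel11. Both strands were searched for TATAAA, the core of the TATA box, which was found in 2 of the 19 promoters of tested members, those of Pramel20 and Pramel31, and in 13.6% of the 32851 mouse promoters. Only this exact string was counted. Near matches, such as tatataag in the printed promoters of Pramel11 and Pramel24, were left out. TAATCC, the core bound by homeodomains of the OTX, CRX and OBOX type, was found in 4 of 19 (Pramel5, Pramel11, Pramel17 and Tdpoz8) and in 7.06% of all promoters. TGCACAC, a motif given for ZSCAN4, was in 0 of 19 and in 4.40% of all, and the E-box CACGTG was in 0 of 19 and in 7.15%. None of these 4 motifs contains another. A match says only that these letters stand in the window.

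Genes that the rule did not take but that lie close to the members were looked at as well. Some of them are close copies of members, such as Gm13102, which holds 86.9% of the 100-base windows of Pramel4. Of 159 genes within 100 kb of a member 40 were tested. Of the 40, 9 were higher and 2 lower, beside 15% and 14.7% of all tested genes, and their median log2 fold change was 0.35. Around the large run on chromosome 4 no gene was called, 0 of 5, and their log2 fold changes ran from -0.54 to 1.25. Around Pramel17 to Pramel19 it was also 0 of 5, from -0.34 to 0.35. Around Oog1 and Pramel51 on chromosome 12, however, 6 of 9 tested genes were higher, among them Gm8332 with 648 and 615 counts in siNT and 1651 and 1723 in siCnot1 (log2 fold change 1.32, SE 0.0946, adjusted p = 8.88e-10 by edgeR) and Gm5662 with 570 and 658 counts in siNT and 1376 and 1279 in siCnot1 (log2 fold change 1.01, SE 0.102, adjusted p = 1.04e-07). Of these 6, Gm21319 (6 and 10 siNT counts) fell short of the filter level in siNT replicate 1 at least. It was thus tested through its siCnot1 libraries. Beside the run on chromosome 5, Kat2b-ps and LOC118568788 were called higher (log2 fold changes 1.78 and 1.85). Kat2b-ps reached the filter level in 1 siNT library and LOC118568788 in 0, and both were likewise tested through siCnot1. Gm21319, Kat2b-ps, LOC118568788 and Selenow were named after their values were seen. The last of the 9 was Selenow (log2 fold change 0.42), beside Obox6. The 2 lower genes were S100a10 near Tdpoz2 (log2 fold change -0.35) and Nop53 near Obox6 (log2 fold change -0.32).

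Other genes of the oocyte and of the 2C state were read in the same fit. Of 19 listed genes of the 2-cell-like state, 18 were tested, and Duxf3 was too low to be tested. Of the 18, 14 were higher and 0 lower, beside 15% and 14.7% of all tested genes. The list was written with earlier results of these data known. It includes Zscan4a, Zscan4c and Usp17la, which the study reported as raised by Cnot1 knockdown. Most of the 14 belong to the gene clusters Zscan4a to Zscan4f and Usp17la to Usp17le, all of them called. Outside these clusters Arg2, Tmem92 and Tcstv1 were called, and AF067061, Sp110, Tcstv3 and Zfp352 were not. Tcstv1, at only 1 and 2 siNT counts, passed the filter through its siCnot1 libraries alone. The median log2 fold change of the 18 was 1.35 against 0.97 for the 24 tested members and 0.01 for all tested genes. The 18 include Tcstv1, and the 24 include Pramel5, Pramel11, Pramel17 and Pramel28, all tested through their siCnot1 libraries. The difference of these medians from that of all genes was not tested. Zscan4d, the most abundant of them, had 760 and 760 counts in siNT and 2198 and 2344 in siCnot1. Of 23 listed oocyte genes 7 were tested, 1 was higher and 2 were lower, beside 15% and 14.7% of all tested genes, and the median was -0.13. Ooep, of the subcortical maternal complex, had 3506 and 3473 counts in siNT and 1788 and 1715 in siCnot1 (log2 fold change -1.09, SE 0.0684, adjusted p = 1.05e-10 by edgeR), and its partner Khdc3 had 1000 and 960 in siNT and 575 and 509 in siCnot1 (log2 fold change -0.95, SE 0.106, adjusted p = 4.23e-07). Nlrp4f was higher (log2 fold change 0.35, adjusted p = 0.0122). Among 8 activators around zygotic genome activation 5 were lower and 0 higher, beside 14.7% and 15% of all tested genes. Klf5 had a log2 fold change of -0.46 (adjusted p = 2.98e-06), Dppa4 of -0.23 (adjusted p = 0.00522) and Dppa2 of -0.18 (adjusted p = 0.037). With library totals 2 of these 8 were lower and 1 was higher.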

How the data were processed

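RNA-seq of 4 libraries was used, 2 siNT and 2 siCnot1, grouped by the sample titles. Per the labels, the libraries were stranded (dUTP) and paired-end, and the methods describe poly(A)+ RNA. The authors deposited raw counts per gene, neither normalized nor pooled, with gene positions of GRCm39. The submitters' processing notes name fastp 0.19.4, HISAT2 2.2.1, DESeq2 1.40.2 and mm10, and the counting program and its use of strand and of reads that fit several genes are not given in the sources used here. Positions from the table and from the reference, which is GRCm38, were not mixed.

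From the counts, edgeR 4.0.16 (R 4.3.3) was run with TMM scaling, filterByExpr (minimum count 10), condition as the only term and Benjamini-Hochberg adjustment over 18144 genes. SEs were obtained by dividing log2 fold changes by the square root of F. CPM are TMM-scaled, and RPKM divide by the deposited exon length. For family sums, members were replaced by their sum and the table was refitted. Alternatives were DESeq2 1.42.0, limma-voom (limma 3.58.1), other scalings and filters, the replicate number as a block, and each library left out. The fits were tested on simulated data. Promoters were aligned globally with Biopython 1.88. Same-numbered libraries did not deviate together (r = -0.0057), so replicate numbers were not taken as pairs. Counts of replicates differed beyond sampling noise (chi-square per gene 6.26 in siNT and 5.27 in siCnot1).

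Every tested member is named, but only some of the untested members. Of other lists up to 3 genes by level and 2 by adjusted p were named, and some further genes after their values were seen. Members and lists were chosen with earlier results of these data known. Of 21 listed names of the 2-cell-like state 19 were in the table. Zp1, Zp2, Zp3, Gdf9 and Bmp15 stand in both oocyte lists, Rbx1 in both ligase lists, and Duxf3 and Nobox also among the paired-like genes.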

Additional observations from a re-analysis of the deposited data

How the results depend on the processing

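Across 3 other scalings, 2 other filters, DESeq2 and limma-voom, the count of higher members lay between 10 and 14 and the Pramel sum between 0.72 and 0.83 on the log2 scale. Without the filter on low counts 0 members were lower. With the replicate block the counts were 13 and 1, the Pramel sum 0.73, the Obox sum -0.17 and the Tdpoz sum 1.04, and the block changed no call of a member or sum. Library totals raised the median log2 fold change of all genes from 0.0084 to 0.12. Leaving out 1 library at a time, where the lone library is assumed to vary like the other group, the higher count ran from 6 to 13 and the lower from 0 to 1, the Pramel sum from 0.69 to 0.76, the Tdpoz sum from 0.96 to 1.12 and the Obox sum from -0.51 to 0.14. Pramel14, Pramel16, Pramel19, Pramel30, Pramel31 and Tdpoz3 were called in all 4 of these fits. Signs turned only for uncalled members: Pramel17, which ran from -0.16 to 2.07 over these fits, Pramel7, from -0.079 to 0.37, Tdpoz4, from -0.25 to 0.71, and Obox4-ps33, from -0.0010 to 0.67. Without its largest member the Obox sum was 0.51 and the Tdpoz sum 0.28. What caused these changes was not tested, except that fewer libraries leave fewer degrees of freedom. Oog could not be tested under the main filter. With 2 libraries per group, members with a mean under 30 counts have SE above 0.4.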
